A study of Mus musculus with 2 samples.

Results

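The genes described here are 10 genes of a single biosynthetic route, all but one of them enzymes, which builds sulfated sialyl Lewis X on the O-linked sugar chains of mucin-like proteins: Fut7, Fut4, Chst4, Chst2, Gcnt1, B3gnt3, St3gal4, St3gal6, C1galt1 and C1galt1c1. They were taken by symbol, and all 10 were found once each among the 32285 genes of both count matrices. The cells were endothelial cells sorted from lymph nodes of mice that all received tamoxifen. Each of the 2 droplet libraries held 4 pools told apart by hashtag antibodies, with peripheral and mesenteric nodes of WT mice and of Xbp1-KO mice kept apart, so every group of genotype and tissue had n = 2 pools, 1 per library. The labels give neither the Cre line nor the age, number or sex of the mice in a pool, nor the deleted piece of Xbp1, whose protein switches on genes of the secretory pathway under endoplasmic reticulum stress. The p-values measure the spread between these pools.

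Sulfated sialyl Lewis X is the sugar cap that L-selectin on lymphocytes recognises, and the high endothelial cells of lymph node venules display it on mucins such as GlyCAM1, which lets lymphocytes roll and enter the node. The chain is laid down in order. Core enzymes start and branch the O-glycan, sulfotransferases add sulfate to N-acetylglucosamine, sialyltransferases cap the terminal galactose, and a fucosyltransferase acts late to complete the epitope.

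After filtering, 9286 cells were kept, 6660 from library 1 and 2626 from library 2, which had 33024170 and 14744778 UMIs (unique molecular identifiers, each marking 1 captured RNA molecule) in the deposited matrices. Only 3 barcodes were shared between the libraries. Clustering, run without the 10 genes, gave 18 clusters, and the marker lists used for naming held none of them. A single cluster of 476 cells was named high endothelial-like. Its leading genes included Glycam1, Ubd and Madcam1 of the high endothelial list, with 5 of the 6 listed markers detected, and also Ccl21a of the lymphatic list, whereas Prox1, the defining lymphatic factor, was seen in 2.94% of its cells. The other blood endothelial cells numbered 4842 and the lymphatic cells 3738. Median depth was 7545, 2650 and 5254 UMIs per cell in the high endothelial-like, other blood and lymphatic cells. Levels are given as CPM, the UMIs of a gene per 1000000 UMIs of the same pool and class. The 8 pool sums of high endothelial-like cells rested on 12 to 130 cells and 84692 to 1113491 UMIs, and the peripheral pools were the smallest.

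The libraries differ in the sex genes of their pools. Xist stood at 604 to 981 CPM in the Xbp1-KO pools of library 1 and at 569 and 953 CPM in the WT pools of library 2, while the Y-linked Ddx3y stood at 82.5 to 104 CPM in the remaining pools. Matching pools of the 2 libraries thus carried different sex genes and came from different animals. With 1 pool per library in each group, the spread between pools also holds any difference between captures and between sexes. Genotype and sex genes are crossed between the libraries, and within a single library they cannot be told apart.

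High endothelial-like cells had Fut7, Chst4 and Gcnt1 at levels far above those of the other blood endothelial cells, and Chst2 and St3gal6 at moderately higher ones. The filter on low counts was passed by 8 of the 10 genes in at least 2 pools of each class. Chst4 and Gcnt1 passed it only through the high endothelial-like pools where they are high, so they are described by their counts, with no test. Of the 8 genes 3 were called, all higher, against 29.3% of 7582 genes past the filter in both classes called in either direction, 11% higher and 18.3% lower (edgeR's quasi-likelihood test on pool sums, Benjamini-Hochberg adjusted p under 0.05). The median log2 difference was 0.30 over the 8 genes and -0.14 over the 7582. Glycam1 alone stood at 9568 to 197848 CPM in the high endothelial-like pools, and library sizes without it (an alternative chosen after seeing the data) changed no call of the 10 genes.

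Fut7 encodes the alpha-1,3-fucosyltransferase that finishes the L-selectin ligand (chr2:25423267-25426374, plus strand, GRCm38). In the 8 pools of high endothelial-like cells it ranged from 239 to 515 CPM with a median of 357 CPM. In the other blood cells it ranged from 4.81 to 13.4 CPM, so the classes did not overlap in any pool. The log2 difference was 5.73 ± 0.21 (SE; edgeR adjusted p 1.89e-13), and the summed counts gave a ratio of 43.0 (95% counting interval 36.0 to 51.8). Fut4, a fucosyltransferase of the same linkage with wider expression (chr9:14748320-14752393, minus strand), did not separate these classes. It stood at 15.2 ± 9.91 CPM (SD, n = 8) in high endothelial-like and 20.3 ± 4.46 CPM in other blood cells, with a log2 difference of -0.39 ± 0.38 (adjusted p 0.472).

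Chst4 encodes the N-acetylglucosamine 6-O-sulfotransferase that is known as largely restricted to high endothelium (chr8:110029153-110039740, minus strand). It was counted with 429 UMIs in high endothelial-like cells and 3 UMIs in all other blood endothelial cells together, a ratio of 527 with a 95% counting interval of 179 to 2568. Pool levels of the high endothelial-like cells ran from 11.8 to 178 CPM with a median of 86.5 CPM, and every pool lay above the highest other blood pool at 0.688 CPM. Against lymphatic cells, with 7 UMIs, the ratio was 312 (150.3 to 782), and that of Fut7 was 311 (210.2 to 483). These intervals cover counting error only.

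Chst2, a sulfotransferase of the same activity found in many tissues (chr9:95399292-95406722, minus strand), differed less. High endothelial-like pools ran from 120.2 to 272 CPM with a median of 143 CPM, and other blood pools from 55.6 to 118 CPM with a median of 88.8 CPM. The lowest high endothelial-like pool thus lay just above the highest other blood pool. The log2 difference was 1.18 ± 0.15 (edgeR adjusted p 6.37e-06).

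Among the core enzymes the branching enzyme stood out. Gcnt1, which makes the core 2 branch on which the epitope can be built (chr19:17326141-17372844, minus strand), ranged from 53.9 to 192 CPM with a median of 154 CPM in high endothelial-like pools and from 3.23 to 8.60 CPM in other blood pools. No pool overlapped, and the summed counts of 636 and 80 UMIs gave a ratio of 29.3 (95% counting interval 23.2 to 37.5). B3gnt3, which extends the core 1 arm (chr8:71690756-71701789, minus strand), stood at 48.1 ± 19.3 and 47.6 ± 5.49 CPM in the same classes, with a log2 difference of 0.21 ± 0.19 (edgeR adjusted p 0.451). C1galt1, the core 1 synthase (chr6:7844842-7875687, plus strand), stood at 17.5 ± 11.4 and 25.9 ± 6.06 CPM (log2 difference -0.59 ± 0.37, adjusted p 0.259). C1galt1c1, the chaperone that the core 1 synthase needs (chrX:38630785-38635087, minus strand), stood at 0 to 31.5 CPM and 12.5 to 25.7 CPM (adjusted p 0.236), with no UMI in either WT peripheral pool of high endothelial-like cells. Its fitted log2 difference of -1.82 is a mean over groups that include this one at 0. The summed counts gave a ratio of 0.84 (95% counting interval 0.63 to 1.11). The genes that start the core 1 chain therefore gave no called difference.

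Of the sialyltransferases, St3gal6 (chr16:58468125-58524243, minus strand) had the higher level in high endothelial-like cells, and the log2 difference was 0.66 ± 0.12 (edgeR adjusted p 0.000389). The pools ranged from 165 to 368 CPM against 179 to 235 CPM in other blood cells, and these ranges overlap. St3gal4 (chr9:35046576-35119268, minus strand) ran from 46.6 to 97.0 CPM and from 35.3 to 94.2 CPM in the same classes, with a log2 difference of 0.39 ± 0.25 (adjusted p 0.265). The call depended on the model: with each pool as a block the value was 0.45 ± 0.17 with adjusted p 0.0269, and without library 2 it was 0.71 with adjusted p 0.00385, whereas without library 1 it was 0.33 with adjusted p 0.271. In library 2 the high endothelial-like pools (61.7 to 92.2 CPM) did not lie above the other blood pools. In other blood cells St3gal4 ran from 35.3 to 56.1 CPM in library 1 and from 65.0 to 94.2 CPM in library 2, with no overlap between the libraries. Both genes overlap a gene on the opposite strand (4930581F22Rik for St3gal4, Dcbld2 for St3gal6), and since strand use in the counting is not stated, part of their counts may belong to the partner.

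**Figure D1:**
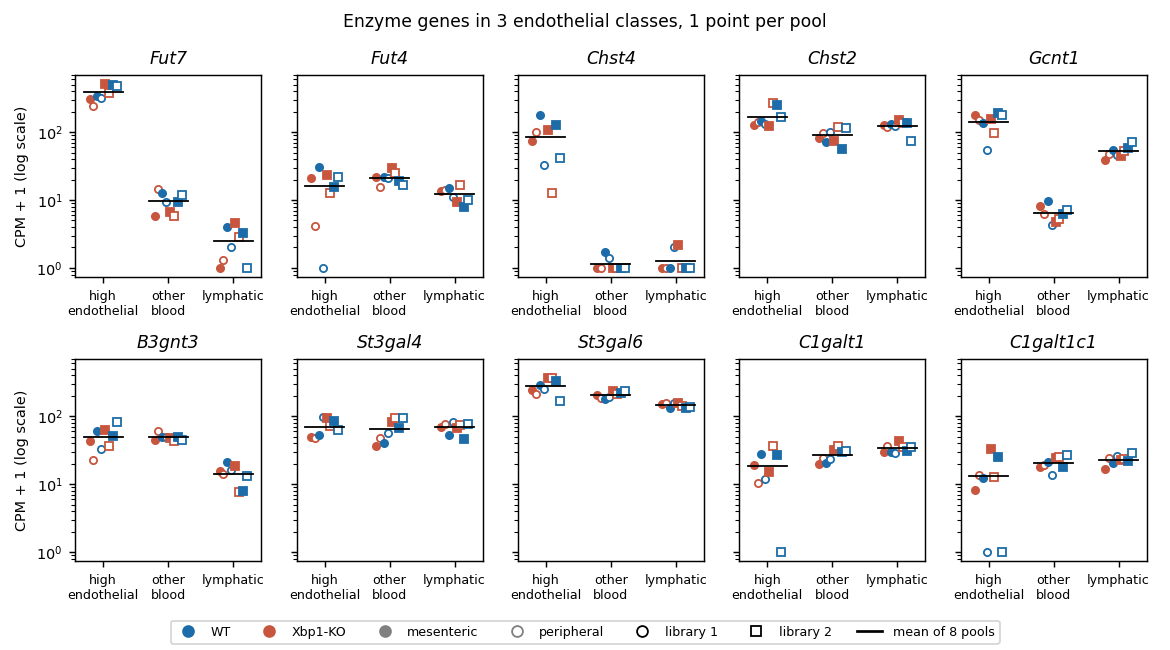
CPM + 1 (log axis) of each of the 10 genes in high endothelial-like, other blood and lymphatic cells, with 1 point per pool and a bar at the mean of the 8 pools. Fut7, Chst4 and Gcnt1 of high endothelial-like cells lie above every other blood pool, while B3gnt3, St3gal4, Fut4, C1galt1 and C1galt1c1 overlap.

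Promoter sequence is shown for Fut7 and Gcnt1, which were high in high endothelial-like cells, and for B3gnt3, which did not separate the classes, because these 3 windows hold the core of the motifs bound by XBP1 and related factors. Each is the 250 bases before a RefSeq start on GRCm38.p6, written 5′ to 3′ on the strand of the gene, with matches in capitals. The windows lie at chr2:25422992-25423241 (plus strand, the outer of the 2 Fut7 starts), chr19:17372845-17373094 (minus strand, the outermost of the Gcnt1 starts) and chr8:71701801-71702050 (minus strand, B3gnt3). ACGT begins 124 bases before this start of Fut7, 139 before that of Gcnt1 and 213 before that of B3gnt3, where it overlaps CCACG read on the opposite strand.
Fut7: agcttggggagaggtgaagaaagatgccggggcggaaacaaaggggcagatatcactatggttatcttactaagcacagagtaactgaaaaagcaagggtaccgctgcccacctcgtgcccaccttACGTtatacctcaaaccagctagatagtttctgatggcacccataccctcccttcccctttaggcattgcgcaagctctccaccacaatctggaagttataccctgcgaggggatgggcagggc
Gcnt1: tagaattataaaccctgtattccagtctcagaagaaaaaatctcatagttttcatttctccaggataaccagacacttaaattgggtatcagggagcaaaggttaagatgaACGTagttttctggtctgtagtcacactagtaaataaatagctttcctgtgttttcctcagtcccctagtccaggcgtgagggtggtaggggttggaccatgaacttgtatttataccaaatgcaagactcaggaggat
B3gnt3: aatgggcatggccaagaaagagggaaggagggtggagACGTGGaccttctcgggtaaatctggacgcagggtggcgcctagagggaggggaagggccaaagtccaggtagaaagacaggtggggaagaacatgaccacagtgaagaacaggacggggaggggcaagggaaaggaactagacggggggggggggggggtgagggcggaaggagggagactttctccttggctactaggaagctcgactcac
Both strands were searched for each motif. ACGT, the shared core, occurred in 26.9% of 32851 RefSeq windows of the same length, and CCACG, a part of the endoplasmic reticulum stress element, in 28.3%, so both are common. The longer TGACGTG, which holds ACGT, occurred in 1.65% of all windows and the cyclic AMP response element TGACGTCA, which also holds it, in 1.55%, and neither was in a window of the 10 genes. The Fut4 window held CCACG on the strand of the gene, beginning 120 bases before the start, and is not printed because it overlaps an annotated exon. The second Fut7 window, which lies within annotated exon, held no match. C1galt1c1 had no window, and a second Gcnt1 window held 2 matches to CCACG on the opposite strand. A match is a description of letters, and binding was not measured.

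Lymphatic cells had their own combination of the same genes. Against the other blood cells, 8 of the 10 genes passed the filter in both classes (Chst4 had too few counts, and Fut7 passed only through other blood cells) and 5 were called, 2 higher and 3 lower. Of 9509 genes past the filter in both classes, 51.4% were called in either direction, 23.5% higher and 27.9% lower, so the share of called genes is near the background. This comparison uses the same other blood sums as the previous one, and the values are given side by side only. Gcnt1 was higher in lymphatic cells, at 38.4 to 70.5 CPM, by a log2 difference of 3.03 ± 0.17 (edgeR adjusted p 2.63e-11). Chst2 stood at 73.9 to 149 CPM and was higher by 0.31 ± 0.11 (adjusted p 0.0245), a call that was lost with either library left out (0.27 with adjusted p 0.344 without library 1, and 0.27 with adjusted p 0.0943 without library 2). The branching enzyme was thus detected well outside high endothelium, although high endothelial-like cells had 3.25 times its lymphatic level in summed counts.

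The 3 genes called lower in lymphatic than in other blood cells were B3gnt3, Fut4 and St3gal6. B3gnt3, at 13.3 ± 4.73 CPM, had a log2 difference of -1.94 ± 0.15 (edgeR adjusted p 3.01e-09). Fut7, with no test, stood at 1.51 ± 1.38 CPM in lymphatic cells, and the summed counts of 131 UMIs in other blood and 25 UMIs in lymphatic cells gave a ratio of 7.24 (95% counting interval 4.69 to 11.6). Of the 131 Fut7 UMIs of other blood cells, 82 came from a capillary cluster led by Aqp1 and 26 from a venous cluster, so the class level rests mostly on these. Fut4, at 11.1 ± 3.03 CPM, was lower by -1.05 ± 0.16 (edgeR adjusted p 2.25e-05). St3gal6, at 132 to 155 CPM, was lower by -0.71 ± 0.08 (adjusted p 8.56e-07), with no overlap with the 179 to 235 CPM of other blood cells. C1galt1 and C1galt1c1 differed by 0.15 and -0.03 and were not called. St3gal4 differed by -0.09 (adjusted p 0.672) over both libraries, by -0.51 without library 1 (adjusted p 0.00451) and by 0.35 without library 2 (adjusted p 0.0198), so its direction rests on the library.

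**Figure D2:**
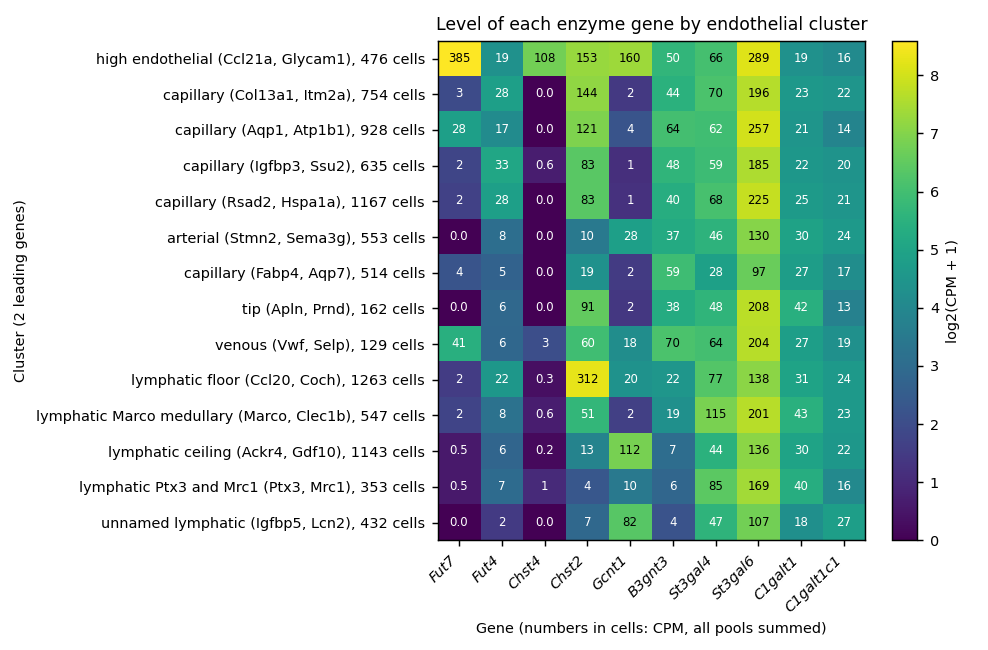
Level of the 10 genes in the 14 endothelial clusters, all pools summed. Numbers in the cells are CPM and the colour is log2(CPM + 1). Fut7, Chst4 and Gcnt1 peak in the high endothelial-like cluster, and Chst2 peaks in the lymphatic floor cluster.

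Ordered over the endothelial clusters, Fut7 stood highest in the high endothelial-like cluster (382 ± 103 CPM over 8 pools), followed by a venous cluster (33.5 ± 29.4 CPM over 4 pools with at least 10 cells) and a capillary cluster led by Aqp1 (27.0 ± 13.4 CPM over 8 pools). The latter pair did not differ beyond their spread, and no further cluster exceeded 3.04 CPM, the lymphatic Marco cluster standing at 2.90 ± 6.16 CPM. Of all Fut7 UMIs, 86.7% came from the high endothelial-like cluster. Chst4 fell off more steeply. The venous cluster had 2 Chst4 UMIs, and the Aqp1 cluster had 0 in 2933923 UMIs, which allows up to 1.02 CPM, although it held 82 UMIs of Fut7.

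The Aqp1 cluster (928 cells) had Enpp2, a gene of the high endothelial list, among its leading genes, and its capillary name rests on 1 capillary and 1 other marker there. It was compared with the remaining blood clusters in a test added after the clusters had been seen. Of 7 genes past the filter in both sets, 3 were called, all higher, against 9.59% of 7641 such genes called, 3.65% higher and 5.94% lower. Fut7 passed the filter only through the Aqp1 cluster and is given with no test. It ranged from 0 to 43.9 CPM over the pools of this cluster, with 0 only in the Xbp1-KO mesenteric pool of library 1, and the summed counts of 82 and 49 UMIs gave a ratio of 6.67 (95% counting interval 4.63 to 9.71). St3gal6 was higher by 0.52 ± 0.12 (edgeR adjusted p 0.00419), a call that held with either library left out. Chst2 was higher by 0.61 ± 0.14 (adjusted p 0.00439), but without library 1 the value was 0.32 with adjusted p 0.513. B3gnt3 was higher by 0.51 ± 0.15 (adjusted p 0.0346), and was not called without library 1 (adjusted p 0.173) or without library 2 (adjusted p 0.0537). Gcnt1 and Chst4 had too few counts to be tested here.

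Within the lymphatic class, Chst2 and Gcnt1 took opposite places. The floor cluster, led by Ccl20 and Coch, and the ceiling cluster, led by Ackr4, are named after the walls of the subcapsular sinus, and the ceiling name rests on 1 marker of its own list against 1 of another. The comparison of the pair was also added after the clusters had been seen. Of 6 genes past the filter in both clusters, 3 were called, 2 higher and 1 lower in the floor, against 32.9% of 7633 such genes called, 17% higher and 15.8% lower. Chst2 ranged from 283 to 426 CPM in the 8 floor pools and from 7.24 to 18.9 CPM in the 8 ceiling pools, a log2 difference of 4.61 ± 0.16 (edgeR adjusted p 9.39e-22). The floor mean of 330.3 ± 48.4 CPM lay above that of the high endothelial-like cluster at 168 ± 59.5 CPM, a difference larger than the spread of either. Gcnt1 ranged from 8.51 to 39.4 CPM in the floor and from 107.9 to 129 CPM in the ceiling, and the log2 difference was -2.26 ± 0.16 (adjusted p 5.55e-14). The pools of the 2 clusters did not overlap for either gene, and of this pair the cluster with more Chst2 was the one with less Gcnt1.

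Of the remaining genes, Fut4 and B3gnt3 passed the filter only through the floor and are given with no test. Fut4 stood at 8.51 to 29.0 CPM in the floor and 0 to 10.3 CPM in the ceiling, with a ratio of summed counts of 3.76 (95% counting interval 2.61 to 5.53). B3gnt3 stood at 8.27 to 32.3 CPM against 0 to 11.2 CPM, with a ratio of 2.96 (2.12 to 4.21). St3gal4 was higher in the floor by 0.91 ± 0.16 (edgeR adjusted p 2.43e-05), and lower in 1 of the 8 pools, the WT mesenteric pool of library 1 (36.4 against 41.0 CPM). St3gal6, C1galt1 and C1galt1c1 differed by 0.06, -0.19 and 0.30 and were not called. The ranges of Fut4 and B3gnt3 touch or overlap at their ends, where a pool holds only a few UMIs.

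**Figure D3:**
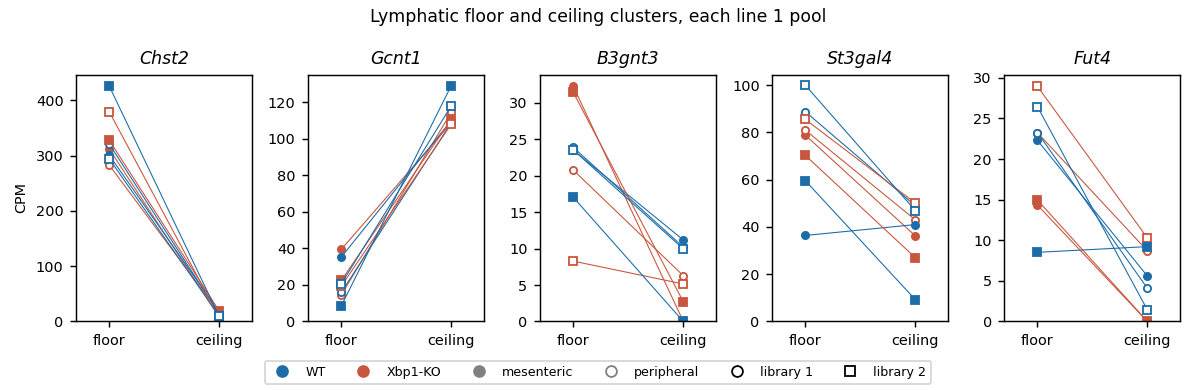
CPM of Chst2, Gcnt1, B3gnt3, St3gal4 and Fut4 in the lymphatic floor and ceiling clusters, with each line joining the values of 1 pool. Every line falls from floor to ceiling for Chst2 and rises for Gcnt1.

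The other genes ordered the clusters differently. For Chst2 a capillary cluster led by Col13a1 (178 ± 78.1 CPM) stood level with the high endothelial-like cluster. For Gcnt1 the ceiling (113 ± 7.17 CPM) did not differ from the high endothelial-like cluster (142 ± 46.6 CPM) beyond the spread. B3gnt3 was highest in the venous (72.7 ± 28.1 CPM) and Aqp1 (61.6 ± 9.54 CPM) clusters, and no neighbours in its order differed beyond their spread down to the Marco cluster of the lymphatic class. St3gal6 had nearly the same mean in the high endothelial-like and Aqp1 clusters (277 ± 74.1 and 269 ± 35.3 CPM). St3gal4 and C1galt1 were highest in the Marco cluster (117 ± 17.8 and 49.7 ± 17.0 CPM), but neither differed beyond the spread from the next cluster, a capillary cluster led by Rsad2 for St3gal4 (76.1 ± 40.9 CPM) and the tip cluster for C1galt1 (43.5 ± 17.8 CPM).

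In single cells, Fut7 was seen with at least 1 UMI in 77.5% of high endothelial-like cells, against 1.73% of other blood and 0.535% of lymphatic cells. For Fut7 and Chst4, lymphatic cells serve as the background level, with a median depth between those of the other classes. Thinned to 2000 UMIs per cell, to remove the difference in depth, the shares were 44.5%, 1.11% and 0.248%, with 6, 1333 and 105 shallower cells left out. Chst4 was seen in 33.2%, 0.0620% and 0.187% of the same cells, and in 12.8%, 0.0285% and 0.110% after thinning. Gcnt1 stood at 53.6%, 1.26% and 17.6%, and after thinning at 23.2%, 0.769% and 8.64%. The order of the classes was kept for each of the 3 genes. Both Fut7 and Chst4 were found in 145 of 476 high endothelial-like cells, and in 35 of 470 after thinning. Deeper cells show both genes more often, so no relation between the 2 genes is read from these counts.

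Peripheral and mesenteric nodes were compared next, with the same pools paired by library and genotype for the counts of pairs. In high endothelial-like cells 0 of the 10 genes were called between peripheral and mesenteric nodes, where 25 of 6117 genes (0.409%) were called by edgeR, 28 by DESeq2, 42 with the library as a block and 498 at an unadjusted p under 0.05. Chst4 stood at 32.3, 99.3, 41.2 and 11.8 CPM in the peripheral pools and at 178, 73.6, 125 and 105 CPM in the mesenteric pools, given as WT and Xbp1-KO of library 1, then of library 2. It was lower in the peripheral pool in 3 of 4 pairs, but the groups overlap and the peripheral values rest on 3, 32, 4 and 1 UMIs. The log2 difference was -1.09 ± 0.40 (edgeR adjusted p 0.416). Without library 1 it was -2.10, and without library 2 it was -0.36. Each of these fits has 1 pool per genotype and tissue, so no p is given. Fut7, Gcnt1 and St3gal6 were lower in the peripheral pool in 4 of 4 pairs, by log2 differences of -0.24 ± 0.25, -0.38 ± 0.33 and -0.36 ± 0.24, none of them called. The median over the 10 genes was -0.40 and that over all genes -0.06. The share of all genes with 1 sign in 4 of 4 pairs was not counted, here or in the other classes.

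Outside high endothelium the tissue difference nearest to the threshold was that of Chst2. In other blood cells it stood at 98.2, 95.7, 114 and 118 CPM in peripheral and 69.5, 81.8, 55.6 and 72.8 CPM in mesenteric pools, which do not overlap. The log2 difference of 0.58 ± 0.14 missed the threshold (edgeR adjusted p 0.0848), and 0 of the 9 genes tested were called, where 0.94% of 9995 genes were called by edgeR, 103 genes by DESeq2, 484 with the library as a block and 880 at an unadjusted p under 0.05. It passed with the library as a block (0.56 ± 0.11, edgeR adjusted p 0.00615). The value was 0.79 without library 1 and 0.38 without library 2. Each of these fits has 1 pool per genotype and tissue, so no p is given. The mix of clusters moved with the tissue. The Col13a1 cluster, the highest blood cluster for Chst2, held 289, 193, 50 and 146 peripheral cells against 44, 11, 8 and 13 mesenteric cells, while the Rsad2 cluster (82.3 CPM) held 96, 78, 36 and 65 against 322, 180, 83 and 307. Within the Aqp1 cluster Chst2 stood at 130, 126, 95.8 and 122 CPM in peripheral and 115, 121, 108 and 124 CPM in mesenteric pools, higher in 2 of 4 pairs. The part of the cluster mix in the class value was not tested.

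In lymphatic cells Chst2 lay the other way, lower in peripheral nodes in 4 of 4 pairs (log2 difference -0.34 ± 0.15, edgeR adjusted p 0.236). Here 2192 of the 2463 Chst2 UMIs came from the floor cluster. The peripheral pools held 934, 1295, 241 and 327 lymphatic cells and the mesenteric pools 479, 173, 67 and 222. Of these, the floor took 307, 455, 56 and 107 in peripheral and 168, 59, 18 and 93 in mesenteric pools, a smaller share in the peripheral pool in 3 of 4 pairs. The ceiling, which is low in Chst2, took 296, 423, 111 and 117 in peripheral and 111, 26, 14 and 45 in mesenteric pools, a larger share in the peripheral pool in 4 of 4 pairs. Inside the floor, Chst2 stood at 321, 283, 294 and 379 CPM in peripheral and 301, 312, 426 and 327 CPM in mesenteric pools, lower in 2 of 4 pairs, and the part of the cluster mix was not tested here either. In lymphatic cells St3gal4 (0.29 ± 0.12, adjusted p 0.207) and C1galt1c1 (0.23 ± 0.17, adjusted p 0.507) stood higher in the peripheral pool in 4 of 4 pairs. Among other blood cells St3gal4 (0.35 ± 0.29) and C1galt1 (0.16 ± 0.23) stood higher and Fut4 (-0.28 ± 0.22) lower in the peripheral pool in 4 of 4 pairs, none of them called. In lymphatic cells 0 of the 8 genes tested were called by edgeR, where 4.45% of 10701 genes were called, 327 genes by DESeq2, 1328 with the library as a block and 2085 at an unadjusted p under 0.05.

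Xbp1-KO pools were then compared with WT pools, which shows how the route stood where Xbp1 was targeted, and the targeted gene was examined first. Xbp1 stood at 302, 504, 257 and 418 CPM in the WT pools of high endothelial-like cells (peripheral and mesenteric of library 1, then of library 2) and at 217, 224, 177 and 331 CPM in the Xbp1-KO pools. In each of the 3 classes, 4 of 4 pairs had less Xbp1 in the Xbp1-KO pool, with log2 differences of -0.53 ± 0.24, -0.82 ± 0.13 and -1.04 ± 0.17 in high endothelial-like, other blood and lymphatic cells, none of them past the adjusted test. With the library as a block, edgeR's adjusted p was 0.000455 for other blood cells (-0.84 ± 0.09) and 0.00167 for lymphatic cells (-1.03 ± 0.14), so both passed. Counts at the 3′ end may lie outside the deleted piece, so this level is a weak check of the labels.

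None of the 10 genes was called between Xbp1-KO and WT in high endothelial-like cells, and no gene at all was called among 6117 (0%; edgeR 0, DESeq2 0, and 230 genes at an unadjusted p under 0.05). Fut7 stood at 312, 335, 484 and 493 CPM in WT and at 239, 302, 378 and 515 CPM in Xbp1-KO pools, in the same order as above. In 3 of 4 pairs the Xbp1-KO pool had less, with overlapping groups and a log2 difference of -0.20 ± 0.26. Gcnt1 stood at 53.9, 136, 175 and 192 CPM in WT and at 152, 178, 94.5 and 156 CPM in Xbp1-KO pools, higher in Xbp1-KO in library 1 and lower in library 2, with a log2 difference of 0.19 ± 0.33. The direction of Gcnt1 thus followed the library and, with it, the sex genes.

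No other gene of the route was called. The log2 differences were 0.20 ± 0.42 for Chst4, -0.12 ± 0.28 for Chst2, -0.56 ± 0.36 for B3gnt3, -0.48 ± 0.80 for Fut4, -0.19 ± 0.32 for St3gal4, 0.23 ± 0.24 for St3gal6 and 0.50 ± 0.76 for C1galt1, all with an edgeR adjusted p of 1.0. The sign for Chst4 depends on the fit: the means were 89.3 and 55.6 CPM in Xbp1-KO mesenteric and peripheral pools against 152 and 36.7 CPM in WT, 3 of 4 pairs were lower in Xbp1-KO, and with either library left out the value was -0.48 or -0.50. The median over the 10 genes was 0.04 and over all genes 0.03. C1galt1c1 stood at 0, 11.5, 0 and 24.4 CPM in WT and at 12.4, 7.18, 11.8 and 31.5 CPM in Xbp1-KO pools, and no fold is given because both WT peripheral pools were at 0. The errors were largest for Fut4 and C1galt1, whose pool sums held few UMIs, and differences of the size of these errors, and clearly larger ones, could be missed.

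Taken by tissue, Chst4 had genotype values of opposite sign in high endothelial-like cells. In mesenteric nodes it stood at 178 and 125 CPM in WT and at 73.6 and 105 CPM in Xbp1-KO, which do not overlap (log2 difference -0.76 ± 0.38, unadjusted p 0.0599). In peripheral nodes it stood at 32.3 and 41.2 CPM in WT and at 99.3 and 11.8 CPM in Xbp1-KO (1.17 ± 0.73). The difference between the tissues was -1.93 ± 0.81 with an unadjusted edgeR p of 0.0292 and an adjusted p of 1.0. It was 1.65 without library 1 and -3.13 without library 2, so its direction rests on the library. Chst2 differed by 0.42 ± 0.44 in peripheral and -0.66 ± 0.33 in mesenteric nodes, with a difference between tissues of -1.09 ± 0.55. No gene was called in either tissue or for the difference between them (0% of 6117 by edgeR and 0 genes by DESeq2 in each, with 227, 127 and 206 genes at an unadjusted p under 0.05).

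**Figure D4:**
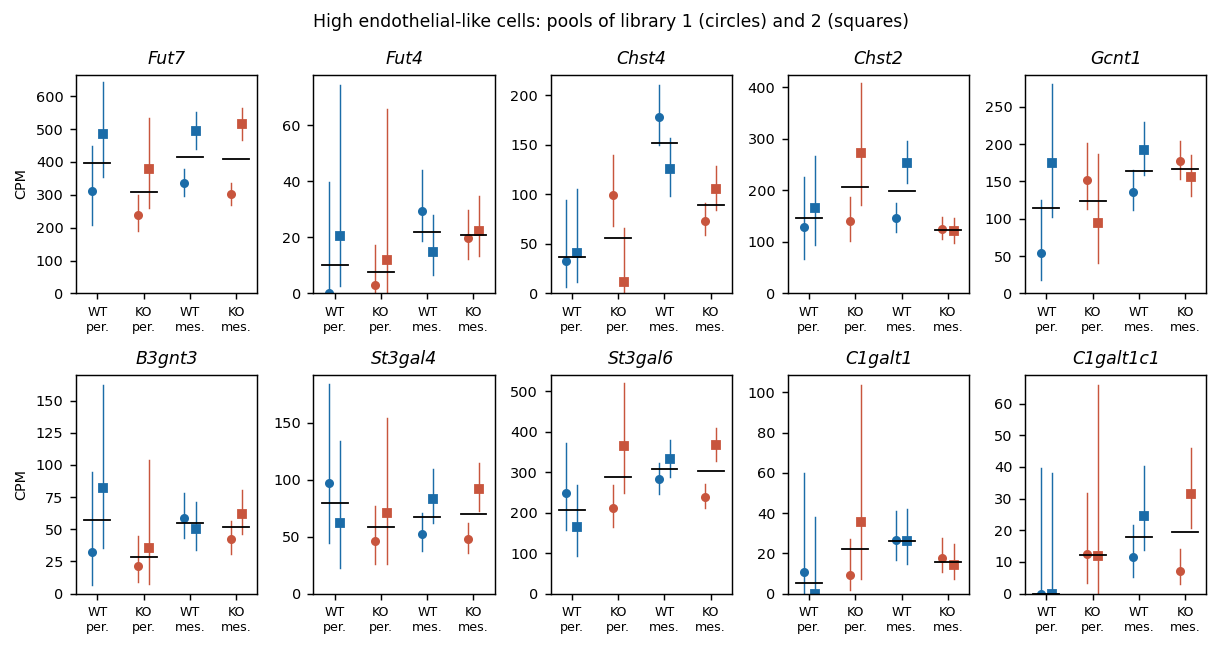
CPM of each of the 10 genes in high endothelial-like cells of the 8 pools, by tissue and genotype. Circles are library 1 and squares library 2, vertical lines are 95% Poisson counting intervals and bars are means of 2 pools. The intervals are widest in the peripheral pools, and no gene separates Xbp1-KO from WT in both tissues.

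In the other classes the genotype left the 10 genes uncalled as well. In other blood cells 0 of 9 tested genes were called, where 0% of 9995 genes were called by edgeR, 3 by DESeq2, 16 with the library as a block and 238 at an unadjusted p under 0.05. In lymphatic cells 0 of 8 were called, where 0% of 10701 genes were called by edgeR, 5 by DESeq2, 77 with the library as a block and 610 at an unadjusted p under 0.05. None of the 10 genes was among those called with the block. Of the 8 lymphatic values the one farthest from 0 was that of Gcnt1, at -0.32 ± 0.16 (edgeR adjusted p 0.854). The median over the genes was 0.11 in other blood and 0.08 in lymphatic cells.

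A further list of glycosyltransferases and sulfotransferases outside the 10, with enzymes of O-glycans and N-acetyllactosamine chains and also of N-glycans, glycolipids and proteoglycans, gives the setting. The counts are over genes past the filter in both classes, and the genes named are those with the largest called differences among them. Between high endothelial-like and other blood cells, 0 of 15 were called higher and 8 lower by edgeR, where 11% and 18.3% of all such genes were. Galnt18, of the family that starts O-glycans, differed by -2.89 ± 0.59 and St3gal1, which sialylates core 1, by -2.45 ± 0.26. Chst1, a sulfotransferase that acts on galactose, Galnt12, B4galt6 and B4galt5 passed the filter only through the high endothelial-like pools. Other genes of the list passed it only through the other blood pools. Both sets are left out of these counts, so the 0 of 15 does not cover them. In the Aqp1 cluster 0 of 21 were higher and 5 lower, beside 3.65% and 5.94%, with Fut8, the core fucosyltransferase of N-glycans, at -1.50 ± 0.20. Between floor and ceiling 3 of 15 were higher and 4 lower, beside 17% and 15.8%, with Galnt1 at -1.91 ± 0.11. Between lymphatic and other blood cells 7 of 27 were higher and 11 lower, beside 23.5% and 27.9%, with St6galnac2 at -4.35 ± 0.23 and B4galt6 at 3.59 ± 0.14. No gene of this list was called for genotype in any class, and for tissue only in lymphatic cells, where Galnt12 was lower in peripheral nodes (-0.95 ± 0.24) and 2.65% of all genes were. St6galnac2, also called there, reached the filter's level in no peripheral pool.

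Across the 18 clusters, the genes most like each of the 10 in log2(CPM + 10) were found by Pearson's r among 8024 genes with at least 500 UMIs. Clusters share libraries and differ in depth, and r is a description. Fut7 was most like Serpina1e (0.95), Ubd (0.89) and Oit1 (0.87). Chst4 was most like Oit1 (0.98), Serpina1e (0.92) and Nxph1 (0.90), with Glycam1 in the fourth place at 0.88. Fut7 and Chst4 had an r of 0.90 with each other. The 18 clusters include the small leukocyte clusters, where Fut7 stood at 85.6 and 179 CPM and Chst4 at 17.8 and 55.1 CPM. The part of these clusters in r was not tested. Chst2 had no such partner among the high endothelial genes, its nearest being Sh2b2 (0.82), Dsg2 (0.81) and Tank (0.80). Gcnt1 was less tightly matched, with Pglyrp1 (0.76), Mrpl30 (0.70) and Abhd14a (0.70).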

How the data were processed

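Sorted lymph node endothelial cells were profiled by 3′ droplet RNA sequencing in 2 libraries of 4 hashtagged pools each. The deposited values are raw UMI counts per gene and barcode, made by the authors with, per the file headers, Cell Ranger 6.0.1, whereas the submitters' processing notes name Cell Ranger 6.1 and mm10. The labels name both a version 2 kit and version 3 chemistry. Use of strand and of intronic reads in the counting is not given in the sources used here.

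Hashtags were called with HTODemux in Seurat 5.3.0 (quantile 0.99), which gave 6786 and 2690 single-tag barcodes. Cells with under 500 genes or over 10% mitochondrial UMIs were removed, and Scrublet (assumed rate 0.8% per 1000 cells) removed 53 and 5 more. Doublets within 1 pool can remain. Clustering used scanpy 1.11.5 (1994 variable genes, 30 components, 15 neighbours, Leiden resolution 1) without the 10 genes. A cluster took the marker list with the highest level, if at least 3 of its markers were seen in at least 10% of cells. Prox1 in at least 25% of cells marked lymphatic clusters. Fibroblastic, leukocyte and dividing clusters were left out of the comparisons.

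Counts were summed per pool and class and tested with edgeR 4.0.16 (quasi-likelihood, TMM, filterByExpr, Benjamini-Hochberg over all genes), without a block. In class comparisons, calls are counted over genes that reach the filter's level (10 UMIs at the median pool size) in at least 2 pools of each class; this was added after seeing the data. The SE is the log2 difference divided by the square root of F. The scripts were tested on simulated data with changes set in randomly chosen genes. For genotype in high endothelial-like cells, 13% of 2-fold and 75% of 4-fold changes were called. For tissue in the same cells the shares were 27% and 78%. Alternatives were DESeq2 1.42.0, another scaling, no filter, a block, each library left out, another hashtag rule, another resolution and thinning. With a library left out, class fits took each pool as a block, without interaction terms. Class values of these fits thus differ from the main fit in the model as well as in the library. Tissue effects and genotype effects over both tissues then came from an additive fit. The libraries are shared captures: deviations of same-library pools correlated at 0.0027 to 0.219 in high endothelial-like, 0.164 to 0.416 in other blood and 0.0586 to 0.232 in lymphatic cells, and the pairing of pools comes from the shared library.

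The 10 genes, the further enzyme list (at most 3 named per comparison, by size of change) and the tests were chosen with earlier results of these data known. Of 32285 gene identifiers, 32235 were found in GENCODE vM21 on GRCm38, which gave the coordinates.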

Additional observations from a re-analysis of the deposited data

Results flagged for a closer look

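St3gal6 and St3gal4, the sialyltransferases, each had genotype differences of opposite sign in the 2 tissues within one class, in every pool pair. In other blood cells St3gal6 was higher in Xbp1-KO than in WT mesenteric pools by 26.8 CPM in library 1 and 17.8 CPM in library 2 (mean 22.3 CPM), and lower in peripheral pools (-2.45 and -19.3 CPM, mean -10.9 CPM). In lymphatic cells St3gal4 was higher in Xbp1-KO mesenteric pools by 16.3 and 20.9 CPM (mean 18.6 CPM) and lower in peripheral pools (-5.62 and -2.18 CPM, mean -3.90 CPM). The Marco cluster, highest for St3gal4, took a larger share of lymphatic cells in the Xbp1-KO than in the WT mesenteric pool of each library. The part of the cluster mix was not tested. The difference between the tissues was not tested in these classes either. Chst2 in high endothelial-like cells had opposite signs too, at 140 and 272 CPM in Xbp1-KO against 129 and 165 CPM in WT peripheral pools, and at 125 and 120.2 against 145 and 252 CPM in mesenteric pools. There the difference was tested and not called (-1.09 ± 0.55, edgeR adjusted p 1.0). Such signs were looked for in all 10 genes, and no chance level was computed for them.

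Fut7 and Chst4 were also counted in clusters that entered no comparison of classes, tissues or genotypes, but did enter Pearson's r. In a leukocyte cluster of 30 cells led by Prtn3 and Mpo, Fut7 stood at 85.6 CPM (24 UMIs) and Chst4 at 17.8 CPM (5 UMIs). In a leukocyte cluster of 42 cells led by Igkc and Ighm they stood at 179 CPM (39 UMIs) and 55.1 CPM (12 UMIs). Glycam1 stood at 28105 and 47690 CPM in the same clusters. The part of these high endothelial transcripts in the Fut7 and Chst4 values was not tested.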

How the results depend on the processing

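The higher levels of Fut7, Chst2 and St3gal6 in high endothelial-like than in other blood cells kept their direction and call under every alternative run, as did the floor and ceiling calls of Chst2, Gcnt1 and St3gal4. Counts of calls below are over all genes tested, those past the filter through 1 class included. Among the calls in the Aqp1 cluster, B3gnt3 was also lost with DESeq2 (adjusted p 0.0543) and without the filter (adjusted p 0.120). Beyond the counts below, the cause of each change was not tested. In the smallest pool of high endothelial-like cells 1 UMI stands for 11.8 CPM. For genotype, 0 of 6117 genes were called by edgeR and 0 by DESeq2 in the larger mesenteric pools too, with 127 at an unadjusted p under 0.05.

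Counts of called genes moved most. With the libraries as a replicate block, genotype calls were 16 in other blood and 77 in lymphatic cells, tissue calls were 42, 484 (1 of the 10 genes) and 1328 in high endothelial-like, other blood and lymphatic cells. With each pool as the replicate block, 1433 genes were called in the Aqp1 cluster. The block changed no other call among the 10 genes than those of St3gal4 and Chst2 given with the results. DESeq2 gave 3 and 5 genotype calls in other blood and lymphatic cells. Without the filter, genotype calls were 2 in high endothelial-like cells (2 in peripheral nodes, 10 in mesenteric nodes, 1 for their difference), 30 in other blood and 67 in lymphatic cells, and tissue calls were 81, 343 (1 of the 10 genes, Chst2 with adjusted p 0.0206) and 858. With 1 library left out, genotype calls ran from 37 to 65, 65 to 141 and 27 to 47 in high endothelial-like, other blood and lymphatic cells, tissue calls from 59 to 80 (0 to 1 of the 10 genes), 368 to 593 (0 to 1) and 258 to 921, and calls in the Aqp1 cluster from 544 to 1084 (2 to 3 of the 10 genes). A library alone has genotype and sex genes aligned.

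The log2 differences that changed sign were of genes not called over both libraries. With 1 library left out, the genotype values in high endothelial-like cells ran from -0.25 to 0.029 for Fut7, -0.50 to -0.48 for Chst4, -0.75 to 0.12 for Chst2, -0.57 to 0.84 for Gcnt1, -0.13 to 0.0036 for St3gal4 and -0.35 to -0.33 for C1galt1. These come from an additive model of genotype and tissue, which weights the pools differently from the mean of the tissues. In other blood cells they ran from -0.24 to 0.70 for Fut4, -0.25 to 0.19 for St3gal4 and -0.030 to 0.26 for C1galt1, and stood at 0.16 for Gcnt1. In lymphatic cells they ran from -0.11 to 0.55 for Chst2 and -0.021 to 0.15 for St3gal4. Tissue values in high endothelial-like cells ran from -0.90 to 0.062 for B3gnt3 and -0.44 to 0.33 for St3gal4, in other blood cells from -0.16 to 0.18 for B3gnt3 and -0.36 to 0.17 for C1galt1c1, and in lymphatic cells from -0.35 to 0.69 for Fut4, -0.14 to 0.20 for Gcnt1, -0.13 to 0.051 for St3gal6 and -0.22 to 0.0045 for C1galt1. Class values ran from -0.12 to 0.27 for Fut4, -0.46 to 0.29 for C1galt1 and -0.61 to 0.41 for C1galt1c1 (high endothelial-like), from -0.51 to 0.35 for St3gal4 and -0.17 to 0.12 for C1galt1c1 (lymphatic), from -0.082 to 0.12 for C1galt1 (floor) and from -0.96 to 0.14 for Fut4 (Aqp1 cluster).

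Other settings also reversed values of genes not called. In genotype, the hashtag ratio rule gave 0.0057 for B3gnt3, -0.074 for St3gal4 and 0.0096 for St3gal6 in mesenteric high endothelial-like cells and 0.092 for Gcnt1 in other blood cells, where leaving out the Aqp1 cluster (chosen after seeing the data) gave 0.11. The replicate block gave -0.014 for C1galt1c1 in mesenteric high endothelial-like cells and -0.0025 for St3gal4 in other blood cells. In tissue, St3gal4 of high endothelial-like cells was 0.0057 with DESeq2's size factors in edgeR, 0.0032 with DESeq2, 0.043 with the replicate block and 0.0099 at the finer resolution, and Chst2 was -0.041 without the filter. Fut4 of lymphatic cells was 0.013 without the filter, 0.0099 with DESeq2, 0.037 with the hashtag ratio rule and 0.0090 at the finer resolution. In other blood cells the ratio rule gave -0.26 for Fut7 (0.33 ± 0.35 otherwise), -0.015 for B3gnt3 and 0.11 for C1galt1c1, and leaving out the Aqp1 cluster gave -0.090 for B3gnt3. C1galt1c1 between lymphatic and other blood cells was 0.036 without the filter and 0.024 at the finer resolution.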

Other observations

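In high endothelial-like cells, Glycam1, the mucin that carries the epitope, and Gcnt1 were set against the sex genes of the pools after their values had been seen, with no test. In the 4 pools with Xist, Glycam1 stood at 116188 to 197848 CPM, and in the 4 pools with Ddx3y at 9568 to 48991 CPM, with no overlap. Gcnt1 stood at 152 and 175 CPM in the peripheral pools with Xist against 53.9 and 94.5 CPM in those with Ddx3y, and at 178 and 192 against 136 and 156 CPM in the mesenteric pools. Over both tissues its ranges overlapped, at 152 to 192 CPM with Xist and 53.9 to 156 CPM with Ddx3y. The WT peripheral pools together held only 22 Gcnt1 UMIs. Fut7 did not divide by the sex genes within either tissue or over both. It stood at 239 to 493 CPM in the pools with Xist and at 312 to 515 CPM in the others. How many of all genes divide the pools by the sex genes was not counted, so these values have no background. Which animals entered each pool is not in the labels, and Glycam1 served to name the cluster.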
